A study of Drosophila melanogaster and Drosophila simulans and Drosophila yakuba with 24 samples.

Results

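Antisense small RNAs against repeats were compared between piwi mutant (piwi2/piwi2) and control (piwi2/CyO, heterozygous) fat bodies, with 1 oxidized small RNA library per genotype. The repeat annotation listed 233 entries, and the 185 entries with 10 or more antisense counts over both libraries were taken. Of the other 48 entries, 36 had no count in either library and 12 had 1 to 9. Both groups were females 10 days old that carried the piwi2 allele, and fat tissue was scraped from the abdominal wall of pooled flies after ovaries and gut had been discarded. The controls also carried the CyO balancer chromosome, so its effect and that of piwi cannot be told apart. The same 2 genotypes had 3 total RNA-seq libraries each, which gave transcript levels of the same entries. The repeat tables have no rows for genes, so neither piwi itself nor markers of fat body or ovary were checked in these libraries.

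piRNAs are small RNAs that guide Piwi-clade argonaute proteins to transposable elements (TEs), and those antisense to a TE can pair with its transcripts. In flies the nuclear protein Piwi carries piRNAs in the germline and in the somatic follicle cells of the ovary, and follicle cell piRNAs depend on it for their stability. Piwi-bound piRNAs are methylated at their 3′ end, so that periodate oxidation before library preparation leaves them able to be cloned while most other small RNAs are lost. Oxidized fat body libraries of the study also held a peak of shorter reads, which the paper takes as likely short interfering RNAs (siRNAs). No size limit for the antisense counts is given in the sources used here, so they may include siRNAs. The fat body is the insect organ of energy storage and innate immunity. The repeats fall into LTR retrotransposons (Gypsy, Pao and Copia families), LINE retrotransposons without terminal repeats (Jockey, R1, I and others), DNA transposons that move by excision, a Helitron, satellites and ribosomal RNA.

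The heterozygous library held 269440 antisense counts over all repeats and the mutant library 62321. The authors scaled the counts to unique alignments at cis-natural antisense transcripts and structured loci, sources of endogenous siRNAs. A mutant value is given here as percent of the heterozygous value on that scale, with 0.5 added to both values for a single entry. Intervals are exact binomial at 95% from the raw counts. Without molecular identifiers they describe the error of counting reads and nothing else. Each deposited normalized value could be written in exactly 1 way as a sum of 3 whole counts, each multiplied by a factor common to all entries of that genotype, and the 3 counts added up to the raw count. The factors were 1.5, 1.9 and 2.3 in the heterozygous library, for 79025, 109525 and 82656 counts with the residual entry included. In the mutant they were 1, 3.10 and 6.85, for 41272, 15979 and 5241 counts. What these components are, such as sequencing runs or separate preparations, is not given in the sources used here, so they were not counted as replicates, n is 1 library per genotype and no test was made of any antisense difference. Among entries of 100 or more counts the components varied 8.49 times as much as counting alone gives in the heterozygous library (150 entries) and 5.07 times in the mutant (83 entries), so the intervals are narrower than the spread among components. The components differ in total, so whether they overlap between genotypes follows in part from the ratio of an entry and is given as a description only.

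Antisense small RNA was lower in the mutant library for 180 of the 185 entries. Summed over all 185, the normalized signal in the mutant was 24.8% of the heterozygous signal (interval 24.6 to 25.0%), and the median entry had a log2 change of -2.29, with quartiles of -3.24 and -1.55. The sum ran from 117813 to 206222 in the 3 heterozygous components and from 35610 to 49403 in the 3 mutant components, without overlap. In dissected tissue, fewer cells that hold such RNAs and less RNA per cell cannot be told apart. At least 4-fold lower were 115 entries (62.2% of those taken), and 166 (89.7%) were at least 2-fold lower. The remaining 19 entries (10.3%) were less than 2-fold lower, 5 of them (2.70%) not lower at all. For 168 entries (90.8%) all 3 mutant components lay below all 3 heterozygous components, for 16 (8.65%) they overlapped, and for TC1_DM, with 13 heterozygous and 21 mutant counts, they lay above. Across the 185 entries, which share their libraries, the heterozygous count and the log2 change had a Spearman correlation of 0.022. The heterozygous value is also the denominator of the change, so this correlation cannot tell whether the difference followed abundance.

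**Figure D1:**
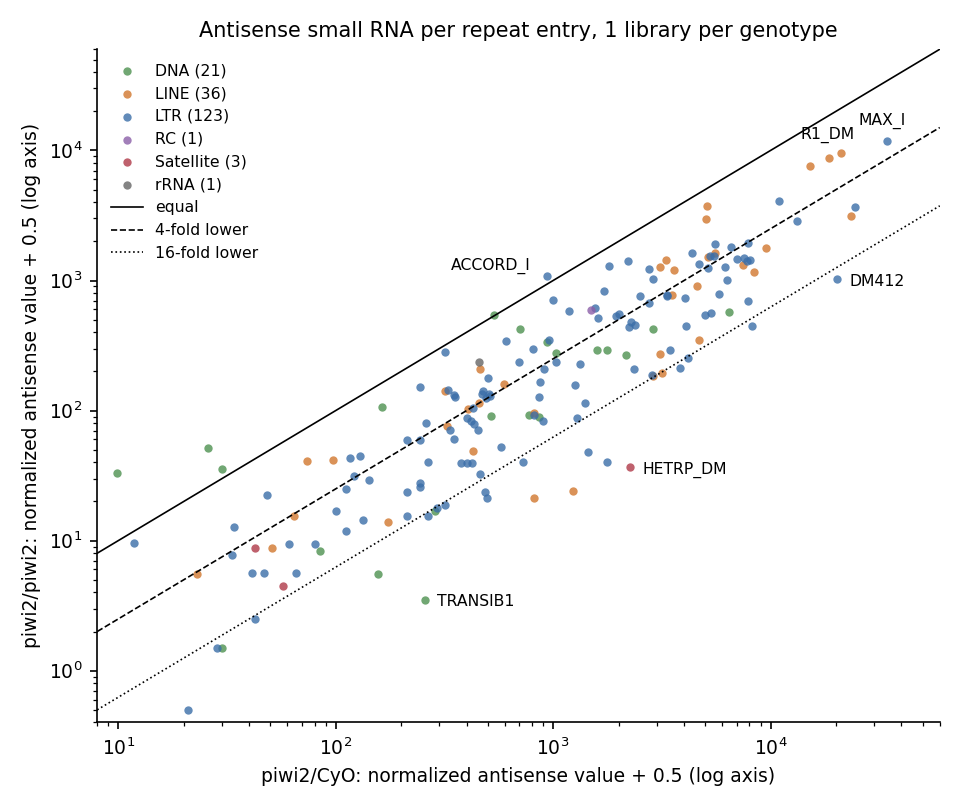
Normalized antisense value of each of the 185 entries in the heterozygous library (x axis) and in the mutant library (y axis), with 0.5 added and both axes on a log scale. Each point is 1 entry coloured by class, with the number of entries in brackets, and 180 of the 185 points lie below the solid line of equal values.

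The entries with the most antisense RNA in the heterozygous library were LTR and LINE retrotransposons. MAX_I, the internal sequence of the Pao family element Max, led with 17966 heterozygous and 6504 mutant counts, and its mutant value was at 34.2% (33.2 to 35.1%). BLOOD_I, the internal sequence of the Gypsy family element blood, had 12785 and 1994 counts and stood at 15.0% (14.3 to 15.7%). These first entries already differed beyond counting error, and their components did not overlap between genotypes. DMRT1B, a LINE of the R1 family, had 12401 and 1617 counts, or 13.4%. FW_DM, the F element of the Jockey family, had 11124 and 4687 counts, or 45.6%. DMRT1B and FW_DM thus differed more than 3-fold in the percent left. DM412, the Gypsy family element 412, had 10854 and 511 counts and stood at 5.03% (4.59 to 5.50%), the lowest of the 10 most abundant entries. R1_DM, a LINE that inserts into ribosomal RNA genes, had 9872 and 4731 counts, or 47.1% (45.5 to 48.7%). DOC, another Jockey LINE, had 8044 and 3761 counts and the highest percent left of the 10, at 50.04% (48.1 to 52.0%). The last 3 of the 10 were ROO_I at 21.7%, BATUMI_I at 37.5% and DMRT1A at 18.7%. In each of the 10 all mutant components lay below all heterozygous components.

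Among the 151 entries with 100 or more counts, the lowest ratio belonged to the DNA transposon TRANSIB1, with 135 heterozygous and 3 mutant counts, a mutant value of 1.37% (0.239 to 3.50%). All 3 of its mutant counts came from the first component, whose factor was 1. The satellite entry HETRP_DM had 1180 and 14 counts, or 1.63% (0.876 to 2.71%). HELENA_RT, a Jockey LINE, had 648 and 9 counts, or 1.97% (0.878 to 3.68%). These 3 entries belong to 3 classes, so the lowest ratios were not held by 1 class. BURDOCK_LTR, the terminal repeat of a Gypsy family element, had 910 and 12 counts, or 2.27%. TART_B1, from a LINE that lengthens chromosome ends, had 475 and 5 counts, or 2.62%. The 271, 145 and 59 counts of TART_B1 in the heterozygous components gave 407, 275 and 133 after scaling, all above the 3 mutant values of 1, 6.20 and 13.7. The other 5 were Gypsy family entries: Invader4_LTR at 3.29%, Gypsy3_LTR at 4.28%, Stalker2_LTR at 4.89%, DM412 at 5.03% and Stalker2_I at 5.41%. With 7 to 15 mutant counts, the 3 LTR entries among them had intervals between 1.67% and 9.23%, which overlap one another. DM412 and Stalker2_I, with 511 and 197 mutant counts, had the lowest percent left among entries with more than 100 mutant counts.

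At the other end, ACCORD_I, the internal sequence of a Gypsy family element, had 494 heterozygous and 512 mutant counts and stood at 115% (101 to 130%). Its components, at 183, 457 and 296 in the heterozygous and 327, 428 and 322 in the mutant library, overlapped. ACCORD_LTR, of the same element, had 168 and 123 counts, or 88.0% (69.2 to 112%). FB4_DM, a foldback DNA element that the table places in the TcMar-Tc1 family, had 287 and 226 counts and a value of 102% (85.1 to 122%), although in raw counts without scaling it was lower in the mutant by 0.34 on the log2 scale. For the last 2 the counting interval includes equal levels. LINEJ1_DM, the jockey element itself, was the largest entry in this group, with 2727 and 1874 counts, or 72.8% (68.6 to 77.3%). Its scaled components were 1350, 1922 and 1837 in the heterozygous library against 1169, 1881 and 671 in the mutant, again with overlap. Copia2_I stood at 71.6%, Bica_I at 71.2%, BARI1, a Tc1-like DNA transposon, at 65.0% and DM1731_I at 63.2%, each with overlapping components. Invader2_LTR, at 62.5%, and the DNA transposon POGO, at 59.8%, were the last of the 10 highest, and in these 2 the mutant components lay below the heterozygous ones. The 10 entries with the highest ratios comprised 4 of the Gypsy family, 2 of the Copia family, 3 DNA transposons and 1 LINE. Apart from FB4_DM and ACCORD_I, the 5 entries that were not lower in the mutant had few counts: TRANSIB3 had 6 and 9, TC1_DM 13 and 21, and Mariner2_DM 16 and 17.

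**Figure D2:**
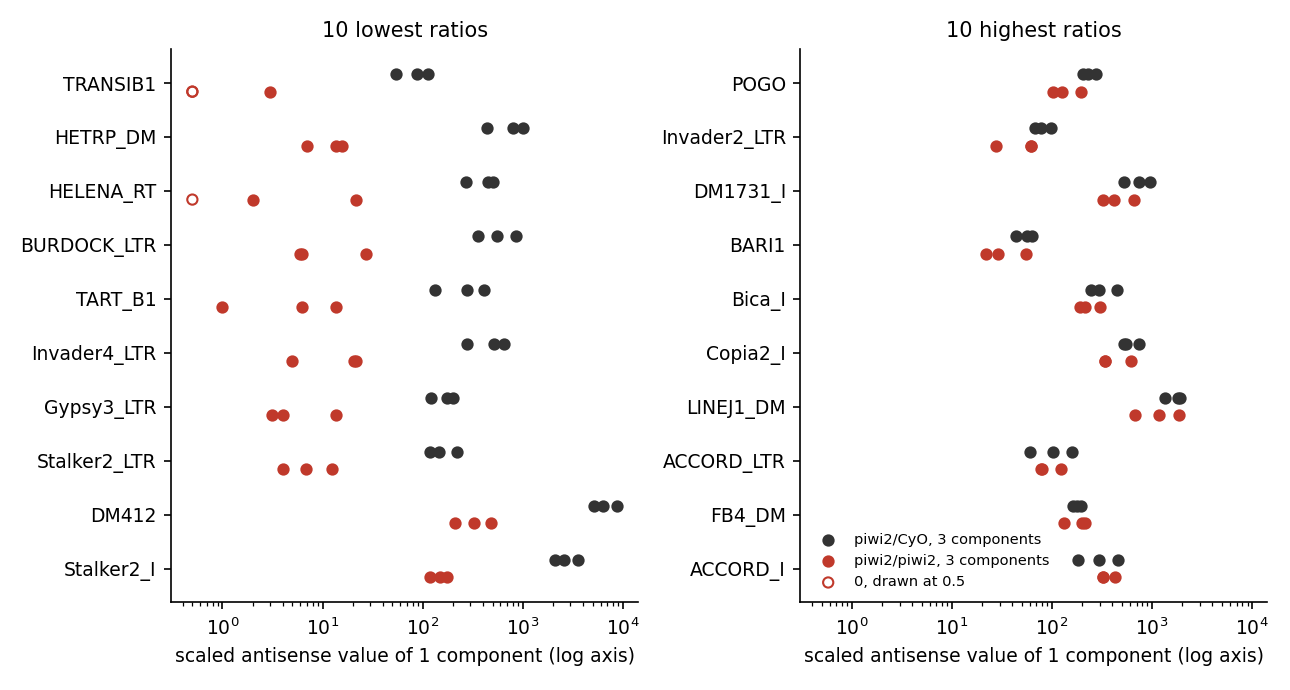
Scaled antisense value of each component (x axis, log scale) for the 10 entries with the lowest and the 10 with the highest ratio of mutant to heterozygous value, among entries with 100 or more counts. Black points are the 3 heterozygous and red points the 3 mutant components of 1 library each, and the colours are separate in the left panel and overlap in 8 of the 10 entries of the right panel.

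By class, LTR retrotransposons had a median log2 change of -2.29 over 123 entries, LINEs of -2.07 over 36 and DNA transposons of -2.60 over 21, beside -2.29 over all 185. At least 4-fold lower were 79 of the LTR entries (64.2%), 20 of the LINE entries (55.6%) and 13 of the DNA entries (61.9%), against 62.2% of all. Summed over entries, DNA transposons stood at 18.6% (17.6 to 19.5%), LTR retrotransposons at 21.9% (21.7 to 22.2%) and LINEs at 31.3% (30.8 to 31.7%). The classes were therefore closer by the median entry than by the sum, in which a few abundant LINEs weigh most. DNA transposons included 4 of the 5 entries that were not lower, but 3 of these had between 15 and 34 counts over both libraries, and among DNA entries with 100 or more counts the range was from 1.37% (TRANSIB1) to 102% (FB4_DM). The Helitron DNAREP1_DM, the only RC entry taken, stood at 39.5% with 804 and 205 counts. The 3 satellites were all at least 4-fold lower and their sum was at 2.06% (1.29 to 3.13%), almost all of it from HETRP_DM. The large subunit ribosomal RNA entry, with 236 and 115 counts, stood at 51.7% with overlapping components.

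Among LTR retrotransposons, the 99 Gypsy entries summed to 18.6% (18.4 to 18.9%), the 16 Pao entries to 28.5% (27.9 to 29.1%) and the 8 Copia entries to 56.4% (53.4 to 59.6%). In raw counts, and with each component left out in turn and the others scaled up to stand for 3, these sums were recomputed. They ran from 16.2 to 21.2% for Gypsy, from 23.98 to 32.1% for Pao and from 46.1 to 65.0% for Copia. The ranges of the 3 sums did not overlap. By the median entry, however, Gypsy (19.6% left) and Pao (20.8%) were close, beside 31.4% for Copia. MAX_I alone held 17966 of the 41333 heterozygous and 6504 of the 11769 mutant counts of Pao. Within Copia the point values fell into separate ranges: the 4 internal sequences stood at 48.3% (Copia1-I_DM), 49.5% (Copia_I), 63.2% (DM1731_I) and 71.6% (Copia2_I), whereas the 4 LTR entries lay between 8.52 and 20.4%. These LTR entries had only 3 to 17 mutant counts. The interval of Copia_LTR, with 31 and 3 counts, ran from 2.85 to 46.8% and overlapped that of Copia_I. All 16 Pao entries were more than 2-fold lower, beside 89.7% of all entries, between 5.84% for BEL_LTR and 37.5% for BATUMI_I. Of the 99 Gypsy entries 63 were at least 4-fold lower, where 62.2% of all entries were. In 93 the mutant components lay below the heterozygous ones, where 90.8% of all did. By these counts the family was near the whole, but it makes up 99 of the 185 entries, which limits how far apart the 2 can lie.

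Among LINEs, the 26 Jockey entries summed to 36.7% (36.0 to 37.3%) and ranged from 1.97% for HELENA_RT to 72.8% for LINEJ1_DM. Without the 4 telomeric entries the Jockey sum was 41.4%, and the abundant members FW_DM, DOC and DOC2_DM, at 45.6, 50.04 and 59.6%, carried most of it. The 5 R1 entries summed to 26.5%, from 13.4% for DMRT1B to 47.1% for R1_DM. The 2 entries of the I family also lay apart, with I_DM, the I factor, at 17.8% (16.4 to 19.3%) and IVK_DM at 43.5% (39.9 to 47.5%). The single CR1 entry, DMCR1A, stood at 13.8% with 4400 and 591 counts. Among DNA transposons the 5 P family entries summed to 13.8% and the 4 CMC-Transib entries to 13.9%. In the TcMar-Tc1 family 4 of 8 entries were at least 4-fold lower, beside 62.2% of all entries. The other 4, BARI1, FB4_DM, Mariner2_DM and TC1_DM, were between 65.0 and 200.4% of the heterozygous value, and Mariner2_DM and TC1_DM had few counts.

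**Figure D3:**
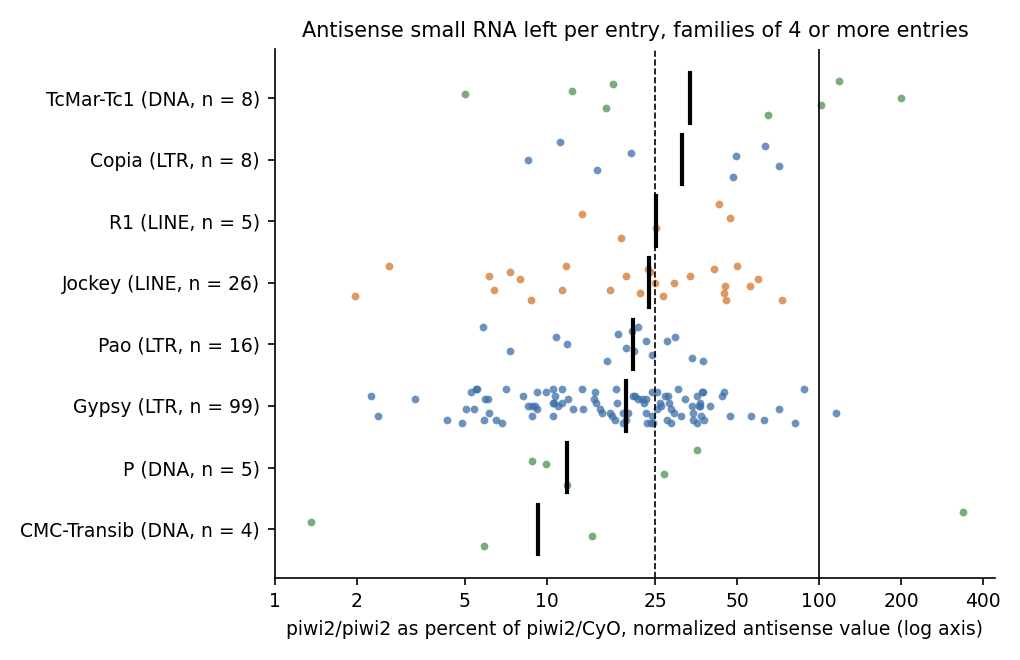
Mutant antisense value as percent of the heterozygous value (x axis, log scale) for every entry of the families with 4 or more entries. Each point is 1 entry, vertical offsets within a family only separate the points, black bars are medians taken on the log scale, and the dashed and solid lines mark 25% and 100%.

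Elements were also grouped by where they are known to be active in the ovary. The follicle cell list comprised gypsy, gypsy5, ZAM, Idefix, gtwin, Tabor, mdg1, 412, 297, 17.6, blood, Quasimodo and Stalker2. All 28 of its entries that reached the minimum had mutant components below the heterozygous ones, beside 90.8% of all entries. Their median log2 change was -2.70, and their sum was at 15.6% (15.3 to 15.98%), beside 24.8% over all entries. At least 4-fold lower were 20 of the 28 (71.4%, beside 62.2% of all), and the range ran from 4.89% for Stalker2_LTR to 56.3% for QUASIMODO_LTR. The germline list comprised the telomeric elements, the I factor, Doc, burdock, hobo, Protop, Bari and roo. Entries were matched to the lists by the start of their name. Doc thus also took in the separate entries DOC2_DM, DOC3_DM, DOC4_DM, DOC5_DM and DOC6_DM. In the follicle cell list 412 took in DM412B_LTR, and Quasimodo took in the QUASIMODO2 entries. Of its 21 entries 14 were at least 4-fold lower, beside 62.2% of all entries, the median was -2.21 and the sum was at 25.2% (24.7 to 25.8%). It ran from 2.27% for BURDOCK_LTR to 65.0% for BARI1. The 4 telomeric entries were all more than 8-fold lower: TART_B1 at 2.62%, TAHRE at 6.15%, TART at 6.39% and HETA at 7.35%, with a sum of 6.43% (5.76 to 7.17%). Of all 185 entries, 23 were at least 16-fold lower and a further 38 between 8- and 16-fold lower. R1_DM and R2_DM, the LINEs that insert into ribosomal RNA genes, formed the last list. R2_DM had only 11 and 5 counts and its percent left lay anywhere between 6.02 and 69.0%.

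In the annotation many LTR retrotransposons have separate entries for the LTR and for the internal sequence, and 52 elements had both at the minimum. The LTR entry had the lower percent left in 38 of them and the higher in 14, with a median difference of -0.52 on the log2 scale, LTR minus internal. An entry near the minimum is taken mainly for its heterozygous counts, and LTR entries have fewer counts. Among the 37 elements with 100 or more counts in both entries the LTR was lower in 26 and higher in 11, with a median difference of -0.35. The 95% counting intervals of the 2 entries were apart in 14 of these with the LTR lower and in 4 with the LTR higher. Invader4_LTR, at 3.29%, and Invader4_I, at 19.0%, were the pair of this set furthest apart with the LTR lower. For QUASIMODO the order was the opposite, with 56.3% for the LTR and 22.8% for the internal sequence, and ROO, Invader2 and GTWIN were the other 3 elements with the LTR interval above. DM1731 had the widest gap of the 52, with 34 and 3 counts in its LTR (8.52%) against 1177 and 678 in its internal sequence (63.2%).

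**Figure D4:**
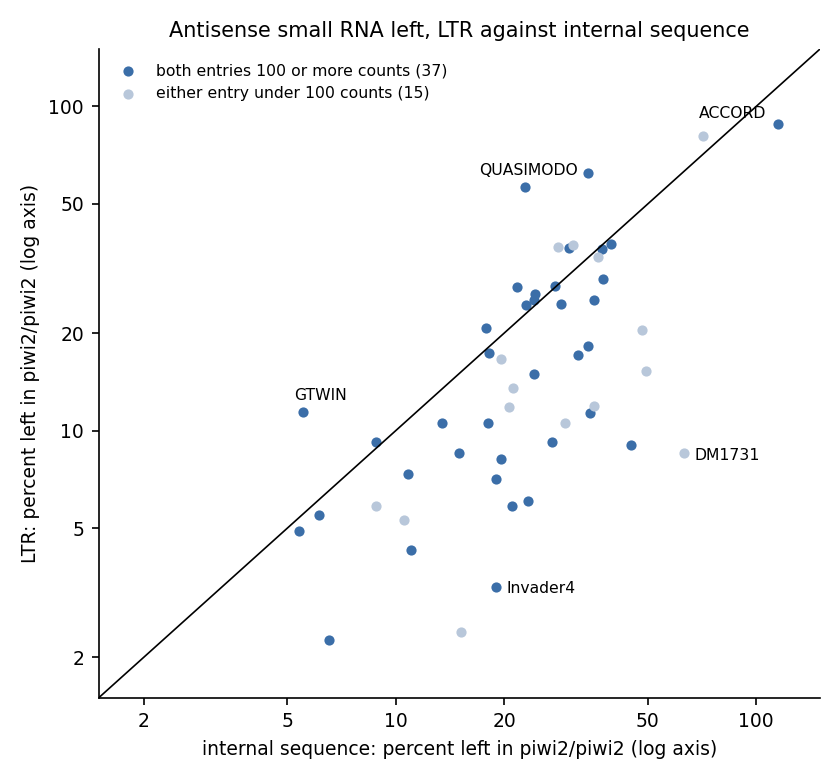
Percent of the heterozygous antisense value left in the mutant library for the LTR (y axis) and the internal sequence (x axis) of 52 elements, both on a log scale. Each point is 1 element, dark where both entries had 100 or more counts, and 38 of the 52 points lie below the line of equal values.

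What was left in the mutant library was spread over fewer entries. In raw counts over the entries taken, 19 entries held 50% of the antisense counts in the heterozygous library and 12 did so in the mutant, and the 10 largest held 37.4% and 48.3%. That share was between 36.3 and 38.4% in the heterozygous components, and 49.8, 47.2 and 40.4% in the mutant components, so each mutant component was more concentrated than each heterozygous one. The 2 libraries shared 8 of their 10 largest entries. In the mutant these were MAX_I, R1_DM, FW_DM, DOC, BATUMI_I, BLOOD_I, DMRT1B and ROO_I, joined by LINEJ1_DM and DOC2_DM, while DM412 and DMRT1A were among the 10 largest in the heterozygous library alone.

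LTR retrotransposons made up 63.0% of the heterozygous and 55.4% of the mutant counts, LINEs 32.0 and 41.3%, and DNA transposons 4.15 and 2.80%. The LINE share was 31.1 to 33.2% over the heterozygous components and 41.7, 41.3 and 37.4% over those of the mutant. The third mutant component differed from the other 2 in its DNA share, 4.37% beside 2.67 and 2.61%, and in its Helitron share, 0.962% beside 0.267 and 0.282%. The Gypsy family took 46.2% of the heterozygous counts and 33.5% of the mutant counts, Jockey 17.0 and 24.9%, Pao 15.3 and 18.9%, R1 10.2 and 11.8%, and Copia 1.47 and 3.03%. The follicle cell list went from 22.5 to 14.03% and the telomeric list from 2.35 to 0.552%, while the germline list held 15.0% in both.

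**Figure D5:**
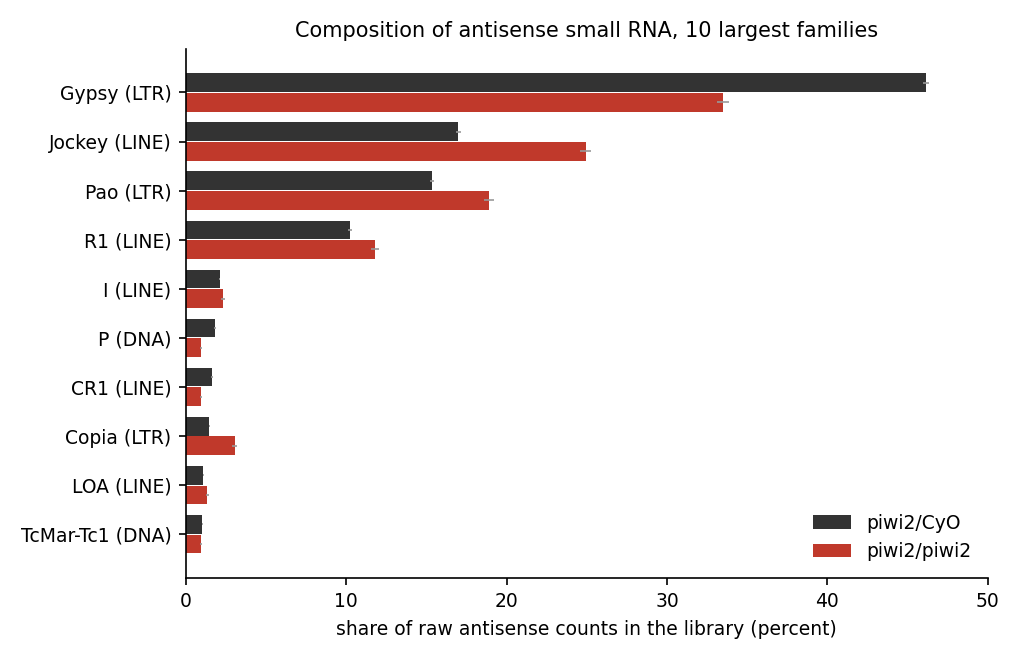
Share of raw antisense counts (x axis, percent) in the 10 families with the largest heterozygous share, for the heterozygous (black) and the mutant library (red), 1 library each. Grey lines are exact binomial 95% intervals for counting error, and Gypsy has 46.2 and 33.5%, while the mutant share is the larger for Jockey, Pao, R1 and Copia.

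Of single entries, R1_DM took 3.66% of the heterozygous and 7.59% of the mutant counts, and it was the second largest entry of the mutant library. MAX_I took 6.67 and 10.4%, FW_DM 4.13 and 7.52%, DOC 2.99 and 6.04%, and LINEJ1_DM 1.01 and 3.01%. All 5 had fewer reads in the mutant library in spite of a larger share. In the opposite direction DM412 went from 4.03 to 0.820%, DMRT1B from 4.603 to 2.59%, BLOOD_I from 4.75 to 3.20% and Stalker2_I from 1.63 to 0.316%. In all, 65 of the 185 entries had a larger share in the mutant than in the heterozygous library.

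Transcripts of the same entries came from 3 RNA-seq libraries per genotype, with 401540 to 941049 repeat counts each. By the quasi-likelihood test of edgeR with Benjamini-Hochberg adjustment over 215 repeats, 11 were higher (5.12%) and 12 lower (5.58%) in the mutant at an adjusted p under 0.05. All 11 higher and 11 of the 12 lower repeats were among the 185 entries with antisense counts, every one of which could be tested. The 11 with higher transcripts had between 6.15 and 48.3% of their antisense RNA left, with a median log2 antisense change of -2.49, and the 11 with lower transcripts between 8.52 and 63.2%, with a median of -2.46, beside -2.29 over all entries. Neither group stood apart from the whole in its antisense RNA by these medians.

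The counts that follow stand beside 5.12% higher and 5.58% lower over all repeats tested. Split by the antisense difference, transcripts of the 23 entries at least 16-fold lower were higher for 1 (TAHRE) and lower for 0, with 3 lower at an unadjusted p under 0.05 and 1 by DESeq2. Of the 38 entries between 8- and 16-fold lower, transcripts of 4 rose and of 4 fell, of the 54 between 4- and 8-fold 3 rose and 3 fell, and of the 51 between 2- and 4-fold 3 rose and 3 fell. Among the 19 entries less than 2-fold lower, 0 rose, with 3 higher at an unadjusted p under 0.05 and 2 by DESeq2, and 1 fell, DM1731_I. The median log2 fold change of transcripts lay between -0.070 and 0.096 in these 5 ranges, beside -0.0085 over all 215 repeats tested. TMM scaling on the same repeats holds that last value near 0, and it was 0.20 higher with library size alone. Library size here is the total of repeat counts. It leaves out the residual entry, which took 93.7 to 96.2% of RNA-seq counts, and scaling to all counts was not tried. None of the 10 entries with the lowest antisense ratio passed the edgeR test (log2 fold changes -0.35 to 0.51), and 0 did so at an unadjusted p under 0.05 or by DESeq2. In the follicle cell list 0 of 28 passed by edgeR (5 lower and 1 higher at an unadjusted p under 0.05, 3 lower and 1 higher by DESeq2). Among them Gypsy_I, which had the highest transcript level of all repeats, had a log2 fold change of -1.07 (SE 0.35, adjusted p = 0.102 by edgeR, 0.00506 by DESeq2). Its mutant libraries all lay below its heterozygous ones. In the germline list 3 of 21 rose (TAHRE, HETA and I_DM) and 2 fell (HOBO and DOC6_DM), where 5.12 and 5.58% of all repeats tested did. Of the telomeric entries TAHRE and HETA rose while TART and TART_B1 did not pass.

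R2_DM, with almost no antisense RNA in either library, had the largest rise in transcripts. Its level, in CPM of the repeat counts with TMM scaling, was 4110, 3849 and 2788 in the heterozygous and 17580, 15308 and 12004 in the mutant libraries, without overlap, a log2 fold change of 2.06 (SE 0.22, adjusted p = 0.000998 by edgeR). R1_DM, the other element of ribosomal RNA genes, had 18295, 22743 and 19550 CPM against 61279, 42485 and 30251 (1.15, SE 0.27, adjusted p = 0.0317 by edgeR). The large subunit ribosomal RNA entry had 8342, 4388 and 7256 CPM against 15872, 9957 and 9881 (0.84, SE 0.29, adjusted p = 0.116 by edgeR, 0.0335 by DESeq2). The small subunit entry also lay higher without overlap (0.62, adjusted p = 0.273 by edgeR). The libraries had been depleted of ribosomal RNA, and whether these differences are linked to those of R1_DM and R2_DM was not tested. MAX_I, the largest antisense entry, had 13509, 9802 and 10370 CPM against 21080, 20433 and 20893, a log2 fold change of 0.89, and MAX_LTR rose by 0.94 on the log2 scale. HETA, at 7.35% of its antisense value, had 3518, 3028 and 2769 CPM against 4719, 9703 and 5983 (1.13, SE 0.27, adjusted p = 0.0317 by edgeR). TAHRE rose by 0.85 on the log2 scale, with an adjusted p of 0.0495 by edgeR. The calls of R2_DM and MAX_LTR held without any single library, with log2 fold changes of 1.91 to 2.17 and 0.82 to 1.01. That of TAHRE was lost without each of the 6 libraries (0.53 to 1.00), that of HETA without each but mutant replicate 1 (0.76 to 1.23), that of R1_DM without each but mutant replicate 3 (0.85 to 1.19) and that of MAX_I without each but heterozygous replicate 1 (0.75 to 0.88).

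DM1731_I, one of the 10 entries with the highest antisense ratio, had the largest fall in transcripts among the 185 entries. It had 59136, 31067 and 40298 CPM in the heterozygous and 3783, 3668 and 4265 in the mutant libraries (log2 fold change -3.48, SE 0.28, adjusted p = 0.000255 by edgeR), and its antisense components overlapped between genotypes. DM1731_LTR, whose antisense value was at 8.52%, fell by 3.30 on the log2 scale, and both calls held without any single library (-3.72 to -3.19 and -3.56 to -2.91). With 34 and 3 antisense counts, the percent left of DM1731_LTR lay between 1.54 and 24.8%, below the interval of 57.4 to 69.6% for DM1731_I. Of the other 9 entries with the highest antisense ratio, none passed the edgeR test, with 2 higher and 2 lower at an unadjusted p under 0.05 and 1 higher and 1 lower by DESeq2.

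At the minimum itself, Chouto_LTR was the only entry just inside, with 10 heterozygous and 0 mutant counts, where a count of 0 allows up to 3. Just outside were POGON1, with 8 and 0 counts, and FROGGER_I, with 7 and 1.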

How the data were processed

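Oxidized small RNA libraries of piwi2/CyO and piwi2/piwi2 fat bodies, 1 of each, and 6 total RNA-seq libraries of the same genotypes were used. The authors trimmed small RNA reads with cutadapt, removed ribosomal RNA reads with Bowtie and assigned the rest to repeats with RepEnrich, which pools the copies of each repeat, so related entries can share reads. The submitters' processing notes name the build dm3. The deposited antisense table holds raw counts, and a deposited second table holds the signal that the authors normalized to unique alignments at cis-natural antisense transcripts and structured loci, with a log2 ratio that was not used. The deposited RNA-seq table holds raw counts per repeat, and the authors' edgeR table was not used. Read lengths and strand of the RNA-seq counting are not given in the sources used here. Residual rows (0.651 and 0.274% of antisense counts, 93.7 to 96.2% of RNA-seq counts) were left out.

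Changes are log2 ratios of normalized values with 0.5 added, for entries with 10 or more counts. The 3 components per genotype were found after the data had been seen, by a search for factors that give whole counts, to within the rounding of the deposited values at 10 significant digits. The search and the transcript test were tested on simulated data. Transcripts were tested with edgeR 4.0.16 (TMM, filterByExpr, quasi-likelihood, two-sided) and DESeq2 1.42.0 in R 4.3.3. Values were computed in Python 3.11.15 with pandas 2.3.3 and scipy 1.17.1. Precision rests on counting for small RNAs and on 3 libraries per genotype for transcripts, which the study's methods call biologically independent. Entries named are the 10 largest in each library, the 10 lowest and 10 highest ratios among entries with 100 or more counts, those with 8 to 11 counts, and the extremes of the 4 lists, and others were chosen after their values were seen. Entries and lists were chosen with earlier results of these data known. Alternatives were raw counts, other minimums, 1 added before the ratio, LTR and internal entries summed, TE classes alone, the largest entry or a component left out, and for transcripts DESeq2, library size alone, no filter, a replicate block and each library left out. Gene tables of wild-type tissues and the other small RNA libraries were not used here.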

Additional observations from a re-analysis of the deposited data

How the results depend on the processing

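The percent of summed antisense signal left, 24.8%, was 23.1% in raw counts and 24.1% without MAX_I, the largest entry. Without heterozygous component 1, 2 or 3 it was 21.5, 27.7 or 26.0%, and without mutant component 1, 2 or 3 it was 25.0, 22.6 or 26.7%. Where a component was left out, the sum of the other 2 was scaled up to stand for 3, which weighs the components equally although what they are is not known. Leaving out components was added after the data had been seen. Without heterozygous component 1 the median log2 change was -2.55 over all entries and -2.55 over LTR entries, and 3 entries were not lower in the mutant. With a minimum of 100 counts 2 were not lower. Of single entries, 3 changed direction: ACCORD_LTR stood at 0.21 without heterozygous component 2, ACCORD_I at -0.069 without heterozygous component 1, and FB4_DM at -0.34 in raw counts and at -0.037, -0.048 and -0.11 without heterozygous component 1, mutant component 2 and mutant component 3. Without MAX_I the heterozygous and mutant shares were 60.3 and 50.2% for LTR entries and 34.3 and 46.1% for LINEs, and by normalized values the mutant shares were 55.8 and 40.4%. For transcripts, DESeq2 called 17 higher and 18 lower and library size alone, as the total of repeat counts, 17 higher and 10 lower. With each library left out in turn, 2 to 9 were called higher and 5 to 15 lower. Whether the replicate numbers pair the libraries is not given in the labels. Deviations of same-numbered libraries had correlations of -0.062, 0.17 and -0.095, which cannot settle it. A fit with the replicate number as a block called 2 higher and 2 lower. The number of entries at least 4-fold lower ran from 78 (LTR and internal entries summed) to 127 (heterozygous component 1 left out) over these alternatives. The causes of these differences were not tested. Depth limits the mutant library most, where the component with the factor 6.85 holds 5241 counts.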
